A study of Mus musculus with 4 samples.

Results

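The Hox genes are 39 homeobox transcription factor genes that lie in 4 genomic clusters, Hoxa, Hoxb, Hoxc and Hoxd. They were taken from the 31017 gene symbols in the deposited matrices as every symbol made of Hox, a cluster letter and a number, which gave 11 Hoxa, 10 Hoxb, 9 Hoxc and 9 Hoxd genes. They were followed through 4 single-cell RNA libraries of vessel progenitor cells sorted from C57BL/6 mice, 1 library for each of the populations P1 and P2 of lung and of fat. Both populations were sorted as CD45-, Ter119- and Tie2+ cells, that is, without leukocyte and red cell surface markers and with the angiopoietin receptor. P1 was PDGFRa-, CD31+, CD105high and Sca1low, an endothelial surface profile, and P2 was PDGFRa+, CD31-, CD105low and Sca1high, a stromal profile. The 4 groups are labelled lung P1, lung P2, labelled fat P1 and fat P2, where "labelled" marks libraries whose genes went against their tissue label. The labels do not state the number, sex or age of the animals, or the fat depot. With 1 library a group, no difference below has a replicate check, and 95% intervals cover counting error only.

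Hox proteins tell cells where they lie along the head-to-tail axis. Within a Hox cluster the genes are numbered by paralog group, and low-numbered genes are switched on earlier and nearer the head than high-numbered ones. Adult connective tissue and vessel cells keep part of this code, so that the same cell type can carry different Hox genes in different organs. Hox proteins bind DNA together with Pbx and Meis proteins, Polycomb complexes keep silent Hox genes off, and retinoic acid activates the low-numbered genes.

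The 2 P1 libraries did not match their tissue labels. The summed level of 6 lung genes, in CPM (UMIs, that is unique molecules, scaled to the library total), was 3.58 in labelled lung P1, 4607 in lung P2, 1479 in labelled fat P1 and 23.1 in fat P2. Sftpc, Tbx4, Tbx5, Tcf21 and Nkx2-1 had no UMI in labelled lung P1. The summed level of 6 fat genes was 13874 CPM in labelled lung P1, 20.4 in lung P2, 152 in labelled fat P1 and 114 in fat P2, most of it from Fabp4, the fatty acid binding protein of fat cells and of capillaries. The results are therefore given with the labels as they stand and also with the P1 libraries exchanged. The cell type did match the gates: 10 endothelial markers summed to 9882, 654, 15835 and 26.8 CPM in the order above, and 10 fibroblast markers to 1006, 12286, 63.1 and 41159 CPM. After filtering, 652, 1436, 1948 and 7898 cells remained, with 1118642, 3880015, 6510236 and 43599072 UMIs. Between 1 and 54 barcodes were shared by a pair of libraries, of which at most 1 a pair was kept in both. The largest numbers were 54 for labelled lung P1 with fat P2 and 20 for labelled lung P1 with labelled fat P1. A gene without a UMI could stand at up to 2.68, 0.773, 0.461 and 0.0688 CPM, which is 3 UMIs.

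All 4 libraries held Hox transcripts, but from different Hox clusters. Lung P2 and the library labelled fat P1 drew on Hoxa and Hoxb alone apart from a few molecules, fat P2 drew mainly on Hoxc, and the library labelled lung P1 added Hoxd to Hoxa and Hoxb. The total was 437 Hox UMIs or 391 CPM (355 to 429) in labelled lung P1, 2151 or 554 CPM (531 to 578) in lung P2, 2604 or 400 CPM (385 to 416) in labelled fat P1, and 16811 or 386 CPM (380 to 391) in fat P2. The summed level was thus highest in lung P2, and the intervals of the other libraries overlapped. In such sums, fewer cells with a transcript and less RNA per cell cannot be told apart.

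**Figure D1:**
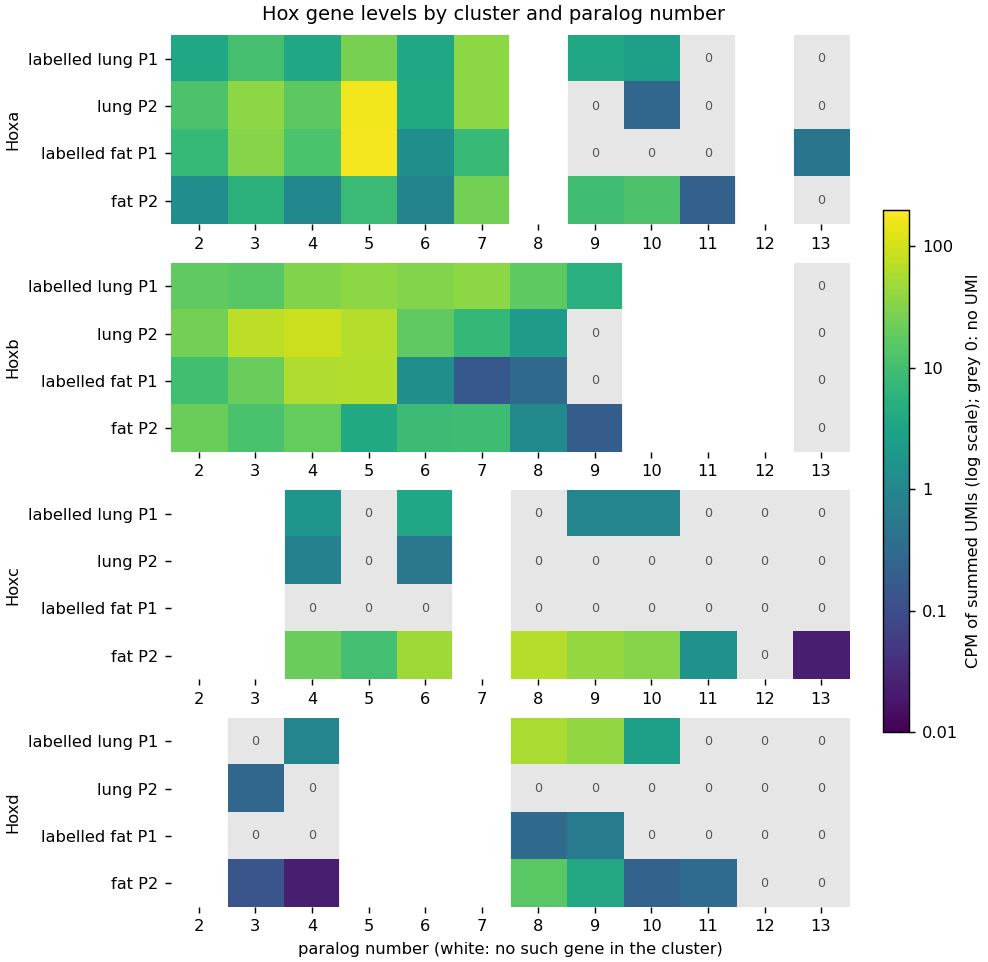
Each panel is a Hox cluster, with paralog groups 2 to 13 from left to right and the 4 libraries as rows, labelled lung P1 above lung P2 above labelled fat P1 above fat P2. Colour gives CPM on a log scale, a grey 0 marks a gene with no UMI and white a paralog group that has no gene in that Hox cluster. The Hoxc panel is filled in fat P2 apart from Hoxc12, and Hoxc8 stands there at 65.7 CPM. Of the Hoxc genes, 4 have UMIs in labelled lung P1, 2 in lung P2 and none in labelled fat P1.

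Of the Hox UMIs, Hoxa genes made up 23.3% (19.5 to 27.6) in labelled lung P1, 48.8% (46.6 to 50.9) in lung P2, 60.2% (58.3 to 62.1) in labelled fat P1 and 17.2% (16.6 to 17.8) in fat P2. Hoxb genes made up 49.0% (44.2 to 53.8), 51.0% (48.8 to 53.1), 39.6% (37.7 to 41.5) and 19.8% (19.2 to 20.4) in the same order. Both shares were thus smallest in fat P2. Hoxc genes made up 1.83% (0.794 to 3.58, 8 UMIs) in labelled lung P1, 0.232% (0.0755 to 0.542, 5 UMIs) in lung P2, none in labelled fat P1, which allows up to 0.142%, and 57.6% (56.9 to 58.4, 9683 UMIs) in fat P2. Hoxd genes made up 25.9% (21.8 to 30.2, 113 UMIs) in labelled lung P1, 1 UMI in lung P2, 6 UMIs in labelled fat P1 and 5.38% (5.04 to 5.73, 904 UMIs) in fat P2. These are exact binomial shares of counted molecules, since 3′ counts carry no scale of transcript length.

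By position, the middle paralog groups 4 to 8 held most Hox molecules in every library, with 73.2% in labelled lung P1, 72.5% in lung P2, 81.8% in labelled fat P1 and 62.2% in fat P2. The posterior groups 9 to 13, which pattern the trunk's tail end and the limbs, held 14.4% (11.3 to 18.1) in labelled lung P1, 1 of 2151 UMIs in lung P2, 7 of 2604 in labelled fat P1 and 27.04% (26.4 to 27.7) in fat P2. The anterior groups 1 to 3 held 12.4%, 27.4%, 17.9% and 10.8% in the same order. Posterior molecules were therefore present in labelled lung P1 and fat P2 and nearly missing from the other libraries.

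**Figure D2:**
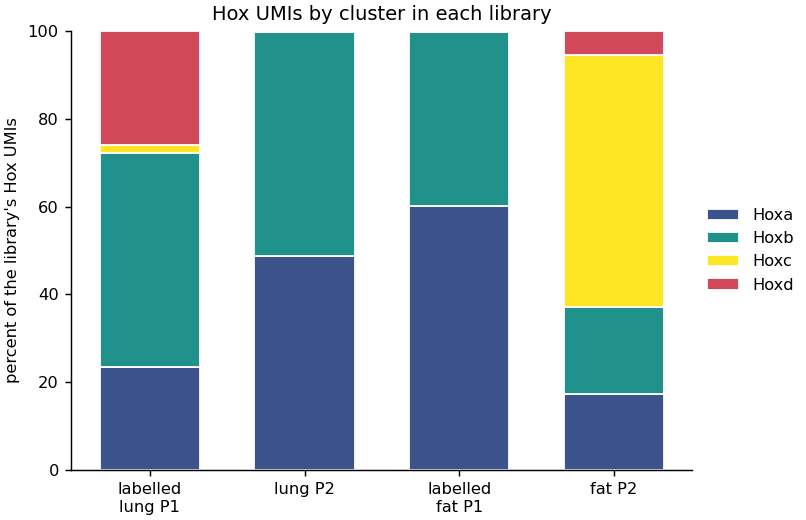
Stacked bars give the percent of a library's Hox UMIs from each Hox cluster, for labelled lung P1, lung P2, labelled fat P1 and fat P2. Hoxc fills 57.6% of the fat P2 bar and Hoxd 25.9% of the labelled lung P1 bar.

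Of the 39 members, 16 stood at 20 CPM or more in at least 1 library, another 17 had UMIs below that level, and 6 (Hoxb1, Hoxb13, Hoxc12, Hoxd1, Hoxd12 and Hoxd13) had none in any library. UMIs were found for 25 members in labelled lung P1, 18 in lung P2, 17 in labelled fat P1 and 32 in fat P2. When each library was thinned to the 1118642 UMIs of the smallest, these counts were 25, 16, 12 and 27, and 8, 7, 5 and 8 members stood at 20 CPM or more. The order of the counts was the same after thinning, with fat P2 above labelled lung P1.

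The promoter of 1 gene from each Hox cluster is shown, because the libraries differed in which Hox clusters they drew on. Windows run from 250 bases before to 50 after the RefSeq transcription start on GRCm38.p6, 5′ to 3′ on the gene's strand: chr6:52204538-52204837 on the minus strand for Hoxa5, and on the plus strand chr11:96318017-96318316 for Hoxb4, chr15:103034145-103034444 for Hoxc4 and chr2:74704365-74704664 for Hoxd8. Capitals mark TAAT, the core letters of a homeodomain site, and AGGTCA, the letters that repeat in the sites of retinoic acid receptors. Both strands were searched, so matches on the other strand read ATTA and TGACCT.
Hoxa5: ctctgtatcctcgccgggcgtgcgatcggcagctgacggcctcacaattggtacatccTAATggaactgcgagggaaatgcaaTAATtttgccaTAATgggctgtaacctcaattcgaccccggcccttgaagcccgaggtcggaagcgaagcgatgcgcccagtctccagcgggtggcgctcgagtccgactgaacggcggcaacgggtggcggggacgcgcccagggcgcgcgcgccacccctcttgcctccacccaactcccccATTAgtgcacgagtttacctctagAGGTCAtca
Hoxb4: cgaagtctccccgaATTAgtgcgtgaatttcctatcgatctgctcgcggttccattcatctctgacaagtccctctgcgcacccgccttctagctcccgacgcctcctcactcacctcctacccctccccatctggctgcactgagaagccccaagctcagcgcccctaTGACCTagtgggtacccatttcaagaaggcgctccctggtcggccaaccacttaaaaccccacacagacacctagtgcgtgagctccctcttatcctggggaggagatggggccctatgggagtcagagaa
Hoxc4: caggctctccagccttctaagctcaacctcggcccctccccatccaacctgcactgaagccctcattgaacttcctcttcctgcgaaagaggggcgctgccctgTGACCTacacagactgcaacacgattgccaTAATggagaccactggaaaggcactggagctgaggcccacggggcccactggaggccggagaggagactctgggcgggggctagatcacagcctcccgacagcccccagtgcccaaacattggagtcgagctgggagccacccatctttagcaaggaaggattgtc
Hoxd8: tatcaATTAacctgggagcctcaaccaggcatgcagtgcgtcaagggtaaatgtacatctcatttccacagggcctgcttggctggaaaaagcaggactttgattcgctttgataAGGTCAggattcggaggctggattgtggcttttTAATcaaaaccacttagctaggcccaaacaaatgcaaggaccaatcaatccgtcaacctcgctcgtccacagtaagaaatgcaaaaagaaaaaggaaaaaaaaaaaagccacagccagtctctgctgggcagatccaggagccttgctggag
Windows were found for 22 of the 39 members, 24 windows in all. Their median was 14.5 CpG dinucleotides, against 7 in the 32841 windows of all genes, and the 4 printed here hold 29, 14, 9 and 6. TAAT was in 79.2% of Hox windows and 58.0% of all windows. AGGTCA was in 29.2% of Hox windows and 16.3% of all windows, and TTTATNG, the letters of a Cdx site, in 8.33% and 10.9%. These matches are letters in a window and say nothing on whether a factor binds.

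The Hoxa genes lie on chromosome 6, from Hoxa2 at 52162417 to Hoxa13 at 52260880 (GENCODE vM21, GRCm38, minus strand). Hoxa5, which mice need for normal lung and airway development, is shown first. It stood at 25.9 CPM (17.4 to 37.2) in labelled lung P1, 161 CPM (148 to 174) in lung P2, 178 CPM (168 to 188) in labelled fat P1 and 8.62 CPM (7.77 to 9.54) in fat P2. Lung P2 and labelled fat P1, the libraries with lung marker genes, were thus high and had overlapping intervals, and the other libraries were low.

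Hoxa3, known for its part in thymus, parathyroid and neck artery formation, was high and low in the same libraries, at 10.7 CPM (5.54 to 18.7) in labelled lung P1, 36.9 CPM (31.1 to 43.4) in lung P2, 32.4 CPM (28.2 to 37.1) in labelled fat P1 and 5.85 CPM (5.15 to 6.61) in fat P2. Hoxa7, a middle gene with a part in vertebral patterning, stood at 36.6 CPM (26.3 to 49.7), 36.6 CPM (30.8 to 43.1), 8.29 CPM (6.23 to 10.8) and 25.5 CPM (24.0 to 27.1) in the same order. Hoxa7 was thus low in labelled fat P1 alone. Hoxaas3, a transcript of the other strand, shares 586 exonic bases with Hoxa7. Hoxa3 shares 1026 exonic bases with genes of the other strand, Hoxaas3 among them. Whether the authors' counting used the strand is not given in the sources used here, so the Hoxa3 and Hoxa7 levels are uncertain.

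The other Hoxa genes stayed below 20 CPM. Hoxa2 and Hoxa4 were highest in lung P2, with 12.6 and 16.7 CPM, while Hoxa6 stayed at or below 4.12 CPM in every library. The posterior genes Hoxa9, a factor of blood and endothelial precursors, and Hoxa10, a factor of uterus and limb, had 4 and 3 UMIs in labelled lung P1, 0 and 1 in lung P2, none in labelled fat P1, and 421 and 550 UMIs (9.66 and 12.6 CPM) in fat P2. Hoxa11 had 9 UMIs, all in fat P2, and Hoxa13 had 3, all in labelled fat P1.

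The Hoxb genes lie on chromosome 11, from Hoxb13 at 96194316 to Hoxb1 at 96368256 on the plus strand. Hoxb4, known for expanding blood stem cells when overexpressed, stood at 30.4 CPM (21.1 to 42.5) in labelled lung P1, 89.2 CPM (80.0 to 99.1) in lung P2, 61.9 CPM (56.0 to 68.2) in labelled fat P1 and 19.5 CPM (18.2 to 20.8) in fat P2. Hoxb5, which acts with Hoxa5 in mouse lung development, stood at 36.6 CPM (26.3 to 49.7), 66.2 CPM (58.4 to 74.9), 64.1 CPM (58.1 to 70.5) and 4.01 CPM (3.44 to 4.66) in the same order. Both were highest in lung P2 and labelled fat P1 and lowest in fat P2.

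Hoxb3, an anterior gene of the hindbrain and neck, stood at 15.2 CPM (8.85 to 24.3) in labelled lung P1, 74.5 CPM (66.1 to 83.6) in lung P2, 20.4 CPM (17.1 to 24.2) in labelled fat P1 and 11.8 CPM (10.8 to 12.8) in fat P2, so that lung P2 stood above the rest. Hoxb2, another hindbrain gene, differed less, with 17.9 CPM (10.9 to 27.6), 25.3 CPM (20.5 to 30.8), 10.1 CPM (7.84 to 12.9) and 21.8 CPM (20.4 to 23.2). Hoxb3os of the other strand shares 2250 of the 4251 exonic bases of Hoxb3 and 953 of the 3488 of Hoxb2, so these levels carry the same uncertainty.

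Hoxb6 and Hoxb7, middle genes of the trunk, had another order. Hoxb6 stood at 31.3 CPM (21.8 to 43.5) in labelled lung P1, 17.8 CPM (13.8 to 22.5) in lung P2, 1.38 CPM (0.632 to 2.62) in labelled fat P1 and 8.83 CPM (7.97 to 9.76) in fat P2. Hoxb7 stood at 37.6 CPM (27.1 to 50.8) in labelled lung P1, 7.22 CPM (4.79 to 10.4) in lung P2, 1 UMI in labelled fat P1 and 9.20 CPM (8.32 to 10.1) in fat P2. Labelled lung P1 was thus the highest library for both and labelled fat P1 the lowest. Hoxb8 stood at 17.0 CPM in labelled lung P1 and at or below 2.32 CPM in the rest, and Hoxb9 had 6 UMIs in labelled lung P1 and 8 in fat P2.

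The Hoxc genes lie on chromosome 15, from Hoxc13 at 102921103 to Hoxc4 ending at 103036852 on the plus strand. Hoxc8, which in mice restrains the browning of white fat, had 2866 UMIs or 65.7 CPM (63.4 to 68.2) in fat P2 and none in the other libraries. Hoxc6 stood at 48.1 CPM (46.1 to 50.2) in fat P2, with 4 UMIs in labelled lung P1, 2 in lung P2 and none in labelled fat P1. Hoxc9 and Hoxc10, known as marks of subcutaneous as against visceral fat, stood at 42.0 CPM (40.1 to 44.0) and 33.4 CPM (31.7 to 35.2) in fat P2, with 1 UMI each in labelled lung P1 and none in lung P2 or labelled fat P1. Each of these genes was thus high in fat P2 and had 4 UMIs or fewer in any other library.

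Hoxc4, the lowest-numbered gene of this Hox cluster, stood at 20.8 CPM (19.5 to 22.2) in fat P2 and had 2 UMIs in labelled lung P1, 3 in lung P2 and none in labelled fat P1. Hoxc5 had 452 UMIs (10.4 CPM) in fat P2 and none elsewhere. Its exons share 166 bases on the same strand with Hoxc10, so a read there does not show which gene it came from. Hoxc11 had 69 UMIs and Hoxc13, a hair and nail gene, had 1, all in fat P2. Counts in fat P2 thus ran from Hoxc4 through Hoxc10 and thinned out at Hoxc11.

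The Hoxd genes lie on chromosome 2, from Hoxd13 at 74668310 to Hoxd1 ending at 74765142 on the plus strand. Hoxd8, a middle gene of the trunk, had 64 UMIs or 57.2 CPM (44.1 to 73.1) in labelled lung P1, none in lung P2, 2 UMIs in labelled fat P1 and 16.03 CPM (14.9 to 17.3) in fat P2. Hoxd9, a gene of the lower trunk and limb, had 45 UMIs or 40.2 CPM (29.3 to 53.8) in labelled lung P1, none in lung P2, 4 UMIs in labelled fat P1 and 174 UMIs or 3.99 CPM (3.42 to 4.63) in fat P2. Both were highest in labelled lung P1, the library with fat marker genes, followed by fat P2. Fibroblast markers summed to 1006 CPM in labelled lung P1, where 8 of 10 stood at 20 CPM or more, against 41159 CPM in fat P2, and erythroid markers to 5432 and 24.2 CPM; their part in these levels was not tested. Hoxd3, Hoxd4, Hoxd10 and Hoxd11 had 14 UMIs or fewer in every library, and Hoxd3 and Hoxd4 share exonic bases.

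**Figure D3:**
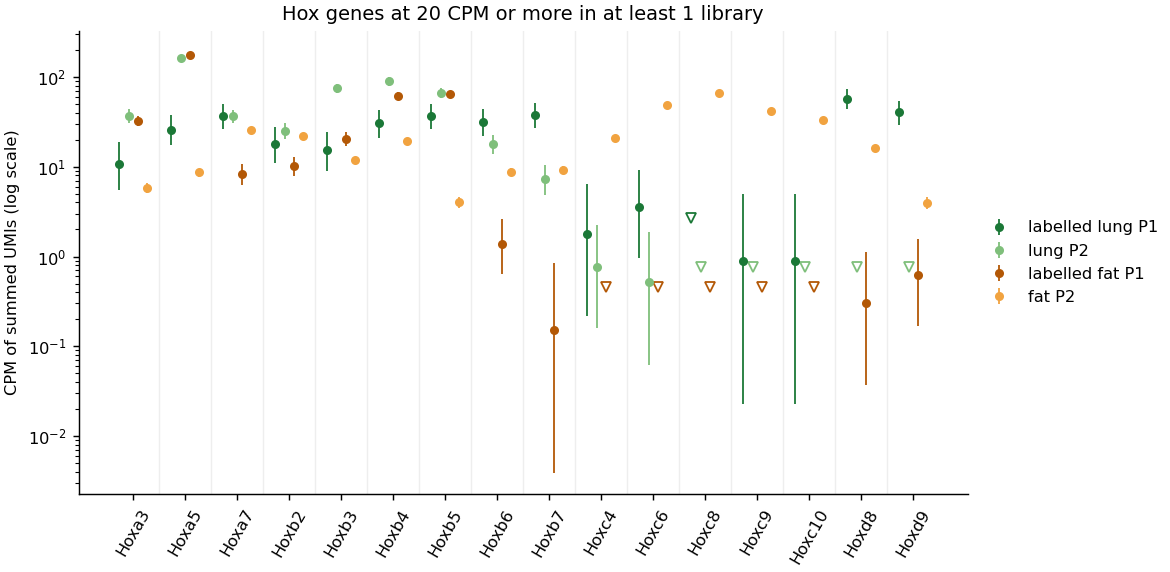
Points give CPM on a log axis, with exact Poisson 95% intervals, of the 16 members at 20 CPM or more in at least 1 library, for labelled lung P1, lung P2, labelled fat P1 and fat P2. Open triangles mark the 3-UMI limit of a library with no UMI. Hoxa5 is highest in labelled fat P1 and lung P2 at 178 and 161 CPM, and the Hoxc genes are highest in fat P2.

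Noncoding genes of the Hox clusters were read beside the members. Hotairm1, a noncoding RNA of the Hoxa cluster, stood at 55.4 CPM in labelled lung P1, 53.1 in lung P2, 42.9 in labelled fat P1 and 12.4 in fat P2. Hoxd3os1, of the strand opposite Hoxd3, stood at 55.4 CPM in labelled lung P1, 0.258 in lung P2, 0 in labelled fat P1 and 5.90 in fat P2, with its highest level in the same library as Hoxd8 and Hoxd9. Hotair, which lies in the Hoxc cluster, had 3 UMIs in fat P2, and Hottip had none in any library.

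For each comparison, members that reached 20 CPM in either library were counted as different when their ratio was at least 4-fold after 10 CPM had been added to both levels. Log2 ratios below are on that scale, which understates low genes. Folds without a log2 are ratios of CPM with counting intervals, or lower bounds against 3 UMIs where a library had none. Each library enters more than 1 comparison, so the comparisons are not independent.

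P1 against P2 of lung asked how the endothelial and stromal populations of an organ differ. As labelled, Hoxd8 and Hoxd9 were at least 74.0-fold and 52.0-fold higher in labelled lung P1 than in lung P2 (log2 ratios 2.75 and 2.33). Hoxa5 was 6.19-fold lower (4.27 to 9.33), a log2 ratio of -2.25. These were 2 members higher and 1 lower of 11 at 20 CPM, beside 5.23% of all genes higher and 7.39% lower, and the members' median log2 ratio was -0.34, against -0.16 for all genes. With the P1 libraries exchanged, the library with lung markers was set against lung P2. Then 0 of 7 members passed in either direction and the Hoxa5 log2 ratio was 0.14. Of 8335 genes at 20 CPM, 448 were higher and 568 lower there. A count of 0 of 7 is not read as a difference from all genes. Members below that limit still differed as ratios of CPM in the exchanged comparison, where Hoxa7 was 4.41-fold lower (3.20 to 6.15), Hoxb3 3.65-fold lower (2.96 to 4.51) and Hoxb6 12.9-fold lower (6.40 to 29.3) in the library with lung markers than in lung P2. Hoxb7, from 1 UMI, was 47.0-fold lower (7.77 to 1921). The lower Hoxa5 and the higher Hoxd8 and Hoxd9 were therefore seen with the labelled lung P1 library alone, and other members differed from lung P2 with the exchanged library.

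P1 against P2 of fat gave the largest number of differing members under the labels, together with the comparison of lung P2 and fat P2. Hoxa5 was 20.6-fold higher (18.3 to 23.2) in labelled fat P1 than in fat P2 and Hoxb5 15.96-fold higher (13.3 to 19.2), log2 ratios of 3.33 and 2.40. Hoxc6, Hoxc8, Hoxc9 and Hoxc10 were at least 104-fold, 143-fold, 91.2-fold and 72.5-fold lower, with log2 ratios between -2.92 and -2.12. These were 2 higher and 4 lower of 12 members, beside 8.02% and 6.85% of all genes, with a members' median log2 ratio of -0.81 and 0.34 for all genes. Among genes without a UMI in labelled fat P1 that did not pass, Hoxc4 was at least 45.2-fold lower, Hoxa10 27.4-fold, Hoxc5 22.5-fold and Hoxa9 20.9-fold. With the P1 libraries exchanged, Hoxc6, Hoxc8 and Hoxc9 were still lower, 3 of 14 members, and none was higher. Of 7798 genes at 20 CPM, 461 were lower and 493 higher there. In that exchanged comparison Hoxc10, from 1 UMI, was 37.4-fold lower (6.70 to 1478, log2 ratio -1.99), Hoxb5 was 9.13-fold higher (6.33 to 12.9, log2 ratio 1.74) and Hoxa5 3.01-fold higher (1.99 to 4.39, log2 ratio 0.95). These members thus kept their direction with either P1 library, and fell below the limit that includes the added 10 CPM.

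Lung P2 against fat P2, the comparison of stromal cells of 2 organs, does not touch the P1 labels. Hoxa5 was 18.6-fold higher (16.4 to 21.2) in lung P2 than in fat P2 and Hoxb5 16.5-fold higher (13.6 to 20.1), log2 ratios of 3.20 and 2.44. Hoxc8, Hoxc9 and Hoxc10 were at least 85.0-fold, 54.4-fold and 43.2-fold lower in lung P2. Hoxc6, with 2 UMIs in lung P2, was 93.3-fold lower with a wide interval of 25.8 to 771. These were 2 higher and 4 lower of 12 members, beside 5.06% and 2.9% of all genes, and the median log2 ratio was 0.27, against 0.20 for all genes. Hoxd8 had no UMI in lung P2 and was at least 20.7-fold lower, but its log2 ratio of -1.38 did not pass. By this measure Hoxa5 and Hoxb5 were thus higher in lung stroma and 4 Hoxc genes lower.

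The 2 P1 libraries, both of endothelial cells, differed as labelled in 4 of 10 members. Hoxb7, Hoxd8 and Hoxd9 were 244-fold (41.5 to 9881), 186-fold (49.5 to 1571) and 65.5-fold (23.9 to 251) higher in labelled lung P1 than in labelled fat P1, from 1, 2 and 4 UMIs in labelled fat P1. Hoxa5 was 6.85-fold lower (4.74 to 10.3), a log2 ratio of -2.38. These were 3 higher and 1 lower, beside 3.51% and 3.66% of all genes, with a median log2 ratio of 0.54, against -0.26 for all genes. Exchanging the libraries turns every sign, so that Hoxa5 has a log2 ratio of 2.38 and Hoxb7, Hoxd8 and Hoxd9 of -2.23, -2.71 and -2.24. With the labels exchanged, Hoxa5 was thus higher in lung than in fat in both populations.

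The Hox cofactors Meis1 and Meis2 had different levels among the libraries. Of 9 Pbx, Meis and Pknox genes, 6 reached 20 CPM in the lung comparison, and 4 were at least 4-fold lower in labelled lung P1 than in lung P2, beside 7.39% of all genes. Among them Meis1 stood at 0.894 against 199 CPM and Meis2 at 10.7 against 103 CPM. In fat, 1 of 7 was higher, beside 8.02% of all genes, and none lower: Meis1 stood at 281 CPM in labelled fat P1 and 30.3 CPM in fat P2, and Meis2 at 254 and 74.4 CPM. Lung P2 had 3 of 7 higher than fat P2, beside 5.06% of all genes, among them Meis1 with a log2 ratio of 2.37. Labelled lung P1 had 2 of 6 lower than labelled fat P1, Meis1 and Meis2, beside 3.66% of all genes. With the P1 libraries exchanged, 2 of 7, Pknox2 among them, were lower in lung P1 than in lung P2, beside 568 of 8335 genes. In fat P1 against fat P2, 1 of 6 was then lower, Meis2 (log2 ratio -2.03), beside 461 of 7798 genes.

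Regulators of Hox chromatin did not differ at this size. Of 27 Polycomb genes, 19 or 20 reached 20 CPM in a comparison, and of 12 Trithorax and H3K27 demethylase genes 11 or 12 did. None of either list passed the 4-fold limit in any of the 4 comparisons, and list medians lay between -0.60 and 0.70 on the log2 scale. Of the regulators of retinoic acid, 1 of 6 was lower between the lung populations, beside 7.39% of all genes, and 1 of 7 was higher and 2 lower between the fat populations, beside 8.02% and 6.85%. Between the P2 libraries 1 of 7 was higher and 1 lower, beside 5.06% and 2.9% of all genes, and between the P1 libraries 1 of 5 was lower, beside 3.66%. Counts this small are not read as a difference of the list. Aldh1a1, an enzyme that makes retinoic acid, had no UMI in labelled lung P1 and stood at 814 CPM in lung P2, against 82.6 CPM in fat P2. Aldh1a3, another such enzyme, stood at 0.307 CPM in labelled fat P1 and 159 CPM in fat P2, and at 1.03 CPM in lung P2. Cyp26b1, which breaks retinoic acid down, stood at 24.1 CPM in labelled lung P1, 252 CPM in labelled fat P1 and 13.1 CPM in fat P2.

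Other positional homeobox and T-box genes were counted in the same way. Of 33 listed, 3 were higher and 5 lower of 11 in labelled lung P1 against lung P2, beside 5.23% and 7.39% of all genes. In labelled fat P1 against fat P2, 3 were higher and 6 lower of 16, beside 8.02% and 6.85%. Lung P2 had 4 higher and 6 lower of 15 against fat P2, beside 5.06% and 2.9%, and labelled lung P1 had 1 higher and 2 lower of 7 against labelled fat P1, beside 3.51% and 3.66%. Tbx2, a lung mesenchyme factor, stood at 11.6 CPM in labelled lung P1, 692 in lung P2, 320 in labelled fat P1 and 9.63 in fat P2, thus high in the libraries with lung marker genes. Tbx4, which marks lung mesenchyme and hind limb, stood at 286 CPM in lung P2 and 0.229 CPM in fat P2. Shox2 and Prrx1, limb and connective tissue factors, stood at 72.2 and 550 CPM in fat P2, with no UMI and 1.23 CPM in labelled fat P1. Of the 7 noncoding genes of the Hox clusters, Hoxd3os1 alone passed, higher in labelled lung P1 than in lung P2 and than in labelled fat P1 (log2 ratios 2.67 and 2.71), and it is named here after its values were seen.

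Cell classes within libraries gave levels in like cells. Cells were grouped per library without the Hox genes, and groups were named from marker genes. Endothelial-like cells numbered 652 in labelled lung P1, 26 in lung P2, 1031 in labelled fat P1 and 19 in fat P2. In them Hoxa5 stood at 25.9 CPM, 178 CPM (126 to 245), 233 CPM (216 to 251) and 0 of 119019 UMIs, which allows up to 25.2 CPM, in that order. The 26 endothelial-like cells sorted with lung stroma were thus near the labelled fat P1 level and above labelled lung P1. Fibroblast markers in these classes summed to 1006, 1001, 8.87 and 25483 CPM, against 9882, 10874, 15473 and 4134 CPM for endothelial markers. The 19 cells of fat P2 thus carried more fibroblast than endothelial marker RNA, and their Hox levels cannot be read as endothelial. Another 879 cells of labelled fat P1 and 448 of lung P2 were left unnamed. Their cell clusters had more markers of another list than of their best-matching list among their 10 leading genes. The 879 held endothelial markers at 17286 CPM and included 425 cells, cell cluster 6 below, with Hoxa5 at 32.6 CPM. The Hoxa5 level of the endothelial-like class of labelled fat P1 thus leaves out those cells. This class also depends on how finely cells were grouped. At the coarsest setting 533 cells carried the name, with Hoxa5 at 73.4 CPM, and at the finest 1722 with 185 CPM. At the coarsest setting only 17 cells of labelled lung P1 kept the name, with Hoxa5 at 77.5 CPM.

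Hoxd genes behaved otherwise in the endothelial-like classes. Hoxd8 stood at 57.2 CPM in labelled lung P1, had no UMI in those of lung P2 and labelled fat P1, and had 4 UMIs or 33.6 CPM (9.16 to 86.1) in the 19 cells of fat P2. Hoxd9 stood at 40.2 CPM in labelled lung P1, had 0 and 1 UMI in lung P2 and labelled fat P1, and had 7 UMIs or 58.8 CPM (23.7 to 121) in fat P2. The intervals of the fat P2 cells and labelled lung P1 overlapped for both genes, with the fibroblast RNA above in the fat P2 cells, whose part was not tested. Hoxc genes summed to 7.15 CPM in labelled lung P1 and to 17 UMIs or 143 CPM in the 19 cells of fat P2, whose library carried 226 CPM of Hoxc in its fibroblast-like cells.

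Fibroblast-like cells numbered 867 in lung P2 and 7501 in fat P2. Hoxa5 stood at 180 CPM (164 to 198) in those of lung and 8.75 CPM in those of fat, Hoxb5 at 73.0 and 3.94 CPM, and Hoxc8 at 0 and 66.7 CPM. The difference between the P2 libraries was therefore present within the fibroblast-like class. In lung P2, 75 mural-like cells had Hoxa5 at 95.8 CPM (53.6 to 158) and Hoxb4 at 153 CPM (98.2 to 228), against Hoxb4 at 91.2 CPM in fibroblast-like cells. Epithelial-like cells were low: Hoxa5 had 0 of 114160 UMIs in 20 cells of lung P2, which allows up to 26.3 CPM, and stood at 20.03 CPM (6.51 to 46.8) in 38 cells of labelled fat P1.

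Within libraries, 3 cell clusters with differing levels of single Hox genes are described; they were singled out after their values were seen, so the contrasts are descriptions. Cell clusters of epithelial-like cells were lower in all Hox genes together, at 124 CPM (84.4 to 176) in cell cluster 10 of labelled fat P1, against 240 to 579 CPM in the others, and at 30.9 and 20.3 CPM, from 2 and 1 UMIs, in cell clusters 6 and 12 of lung P2, against 327 to 671 CPM in the others. In labelled fat P1, cell cluster 6 (425 cells, with Fibin, Ednrb, Sftpa1, Apln, Sftpc and Car4 among its 10 leading genes) had Hoxa5 at 32.6 CPM (24.5 to 42.6), against 227 CPM (214 to 241) in the other 1523 cells. Hoxb5 went the other way, at 105 CPM (89.5 to 121) in cell cluster 6 and 50.3 CPM (44.2 to 57.0) in the others. Hoxa3 and Hoxb4 were lower in cell cluster 6, at 16.9 against 37.7 CPM and 42.3 against 68.6 CPM. Of the other cell clusters, 10 of 11 had Hoxa5 between 134 and 376 CPM, and the epithelial-like cell cluster 10 had 20.03 CPM. Endothelial markers summed to 19427 CPM in cell cluster 6 and 14610 CPM in the others, with 10 of 10 at 20 CPM or more in both. Epithelial markers summed to 2596 and 995 CPM, with 2 and 5 of 9 at 20 CPM or more, and their part in the Hox levels was not tested. Cell cluster 6 was thus low in Hoxa5 and high in Hoxb5 within the same library.

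In lung P2, cell cluster 7 (76 cells, led by Igkc, Scara5, Ighm, Dcn and Lum) had Hoxa5 at 50.03 CPM (28.0 to 82.5), against 170 CPM (157 to 184) in the other 1360 cells. Hoxb4 stood at 43.4 CPM (23.1 to 74.1) in cell cluster 7 and 93.0 CPM (83.3 to 104) in the others. Fibroblast markers summed to 41894 CPM in cell cluster 7 and 9806 CPM in the others, and B cell markers to 1234 CPM, with 5 of 5 at 20 CPM or more, and 3.63 CPM, with 0 of 5. Their part in the Hox levels was not tested. The contrast was smaller when cells were grouped coarsely, where 158 cells had Hoxa5 at 81.6 CPM, against 175 CPM in the rest.

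**Figure D4:**
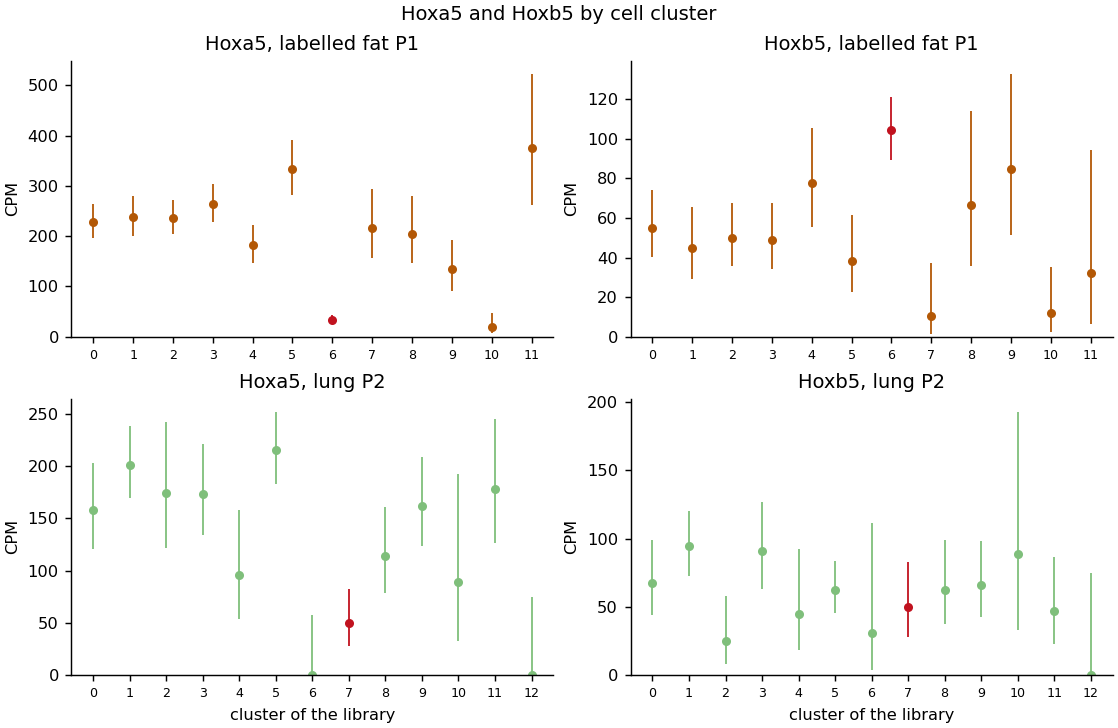
Points give CPM of Hoxa5 and Hoxb5 by cell cluster with exact Poisson 95% intervals, in labelled fat P1 and in lung P2. Cell cluster 6 of labelled fat P1 and cell cluster 7 of lung P2 are in red, and cell cluster 6 has Hoxa5 at 32.6 CPM and Hoxb5 at 105 CPM.

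In fat P2, cell cluster 2 (339 cells, led by Cilp, Thbs4, Hmcn2 and Myoc) had less Hoxc8, Hoxc9 and Hoxc10. Hoxc9 stood at 14.9 CPM (9.84 to 21.7) in cell cluster 2 and 43.2 CPM (41.3 to 45.3) in the other 7559 cells, Hoxc10 at 13.3 and 34.3 CPM, and Hoxc8 at 42.0 and 66.8 CPM. Hoxb5 was higher, at 14.9 CPM (9.84 to 21.7) against 3.54 CPM (2.99 to 4.16), as was Hoxb6 at 20.5 against 8.33 CPM. Cell cluster 2 thus had less of these Hoxc genes and more of these Hoxb genes than the rest of its library. The other Hoxc genes were not contrasted. Fibroblast markers were about equal, at 42181 and 41114 CPM, with 10 of 10 at 20 CPM or more in both. Hoxd8 varied among other stromal cell clusters, from 6.79 CPM (4.64 to 9.58) in cell cluster 0 to 32.3 CPM (26.0 to 39.7) in cell cluster 10, which was led by Fmo2 and F3. Hoxc10 stood at 17.6 CPM (13.4 to 22.8) in cell cluster 7, where Hoxc8 was at 62.6 CPM. Cell cluster 7 was led by Sult1e1, Il1r2, C7 and Ddx3y, a gene of the Y chromosome. The sex of the animals is not given, and its part in this Hoxc10 level was not tested.

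**Figure D5:**
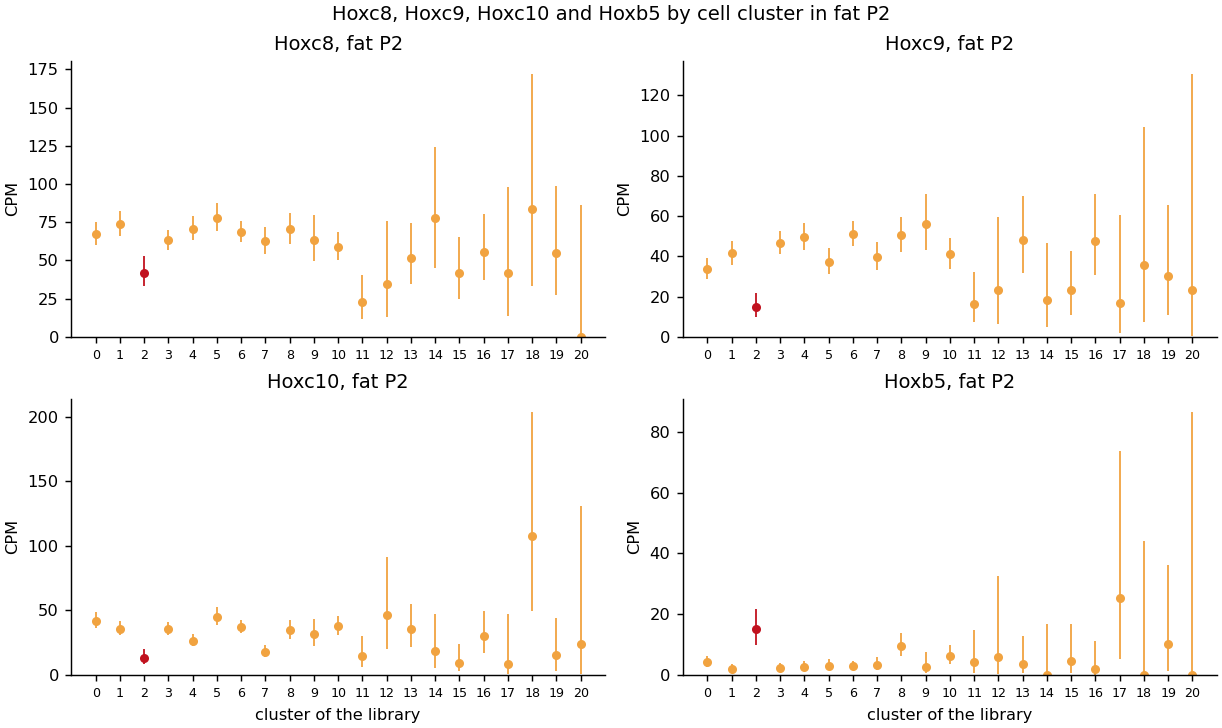
Points give CPM of Hoxc8, Hoxc9, Hoxc10 and Hoxb5 by cell cluster of fat P2 with exact Poisson 95% intervals. Cell cluster 2, in red, has Hoxc9 at 14.9 CPM and Hoxb5 at 14.9 CPM.

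Per cell, Hox transcripts were sparse. After each cell was thinned to 2000 UMIs, any Hox gene had a UMI in 46.9% of cells of labelled lung P1 (39.1 to 54.9, 77 of 164), 65.8% of lung P2 (62.4 to 69.1, 512 of 778), 52.9% of labelled fat P1 (50.3 to 55.5, 789 of 1491) and 52.0% of fat P2 (50.9 to 53.2, 3742 of 7191). Without thinning, any Hox gene had a UMI in 45.7%, 68.2%, 64.5% and 78.4% of cells, an order that follows depth for the fat libraries. Cells too shallow to thin were left out, 488, 658, 457 and 707 in the same order. At equal depth, lung P2 had the highest share, as it had the highest summed CPM.

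By Hox cluster, any Hoxa gene had a UMI in 12.8%, 40.4%, 36.0% and 12.4% of thinned cells of labelled lung P1, lung P2, labelled fat P1 and fat P2, and any Hoxb gene in 27.4%, 42.7%, 25.6% and 13.9%. Any Hoxc gene had one in 1.83%, 0.257%, 0 of 1491 cells, which allows up to 0.201%, and 34.1%. Any Hoxd gene had one in 19.5%, 0.129%, 0.201% and 4.16% of cells. The shares order the libraries as the summed levels do.

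Shares in classes of other cell types are set beside these, although those classes also held RNA of the main cell types and so are no clean measure of free RNA. In fat P2 any Hoxc gene had a UMI in 6 of 32 thinned B-like cells, 18.8% (7.21 to 36.4), against 34.7% (33.5 to 35.8) of fibroblast-like cells, with median depths of 2660 and 5231 UMIs before thinning. Pdgfra, a gene of the sorted stroma, also had a UMI in 6 of those 32 cells, and the B-like class held fibroblast markers at 21496 CPM, with 10 of 10 at 20 CPM or more, against B markers at 3117 CPM. In lung P2 any Hox gene had a UMI in 7.14% of epithelial-like cells (0.181 to 33.9, 1 of 14), against 66.2% (62.3 to 70.0) of fibroblast-like cells, with median depths of 5605 and 2631 UMIs. Epithelial markers in that epithelial-like class summed to 110617 CPM and fibroblast markers to 263 CPM. In labelled fat P1 the share was 21.2% of epithelial-like cells (8.98 to 38.9, 7 of 33) and 61.1% (57.4 to 64.7) of endothelial-like cells, with median depths of 5099 and 2539 UMIs. This epithelial-like class held epithelial markers at 15807, mural at 2781 and endothelial at 1547 CPM. The endothelial-like class beside it left out the 879 unnamed cells, cell cluster 6 among them. The shares in the main classes of lung P2 and labelled fat P1 thus lay above those of the epithelial-like cells, and the interval of the B-like cells reached that of the fibroblast-like cells.

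For pairs of Hox genes, the share of cells with the second gene was compared between cells with and cells without the first. In fat P2 the ratio of these shares had a median of 1.04 over 66 pairs, with 36 above 1. Pairs within a Hox cluster had a median of 1.09 and pairs from different Hox clusters of 1.002. In lung P2 the median was 0.987 over 45 pairs, with 22 above 1. The medians thus lay near 1, with ratios of single pairs from 0.229 to 2.38 in fat P2. Pairs share cells and genes, and these are descriptions of sparse counts.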

How the data were processed

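Sorted cells were measured with 10x Genomics 3′ v3.1 libraries, 1 library for each of 4 groups. The authors deposited counts (UMIs for each gene in each barcode, not normalized), and Cell Ranger 3.1.0 and the build mm10 are named in the submitters' processing notes. The release of the gene annotation and the strand setting are not given in the sources used here. The 31053 gene entries were summed to 31017 symbols (35 symbols had more than 1 ID, Hoxd4 among them).

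From these counts, barcodes were kept that had 1000 UMIs or more, 500 genes or more and 10% or less mitochondrial UMIs, doublets were not removed, and UMIs were summed per library and scaled to CPM. The libraries held 1305, 2860, 3783 and 9025 barcodes with 1510443, 5348607, 8866500 and 44711105 UMIs (labelled lung P1, lung P2, labelled fat P1, fat P2), of which 16, 847, 1645 and 672 exceeded the mitochondrial limit. CPM have exact Poisson and shares exact Clopper-Pearson 95% intervals, which cover counting error only. Ratios were taken after adding 10 CPM, with at least 4-fold as the limit, for genes that reached 20 CPM in either library compared. With 1 library a group, no test was run. Cells were clustered within each library without the Hox genes (scanpy 1.11.5, 2000 variable genes, 30 principal components, 15 neighbours, Leiden resolution 1) and cell clusters were named from at least 3 markers at 100 CPM. A cell cluster was left unnamed when another marker list had more genes among its 10 leading genes than its own list had. So were cell clusters much shallower than their library with no marker of their list among the leading genes. A class is called endothelial-like and so on only from these markers.

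The members and the gene lists were chosen with earlier results of these data known. Named genes are all members at 20 CPM or more, and from the other lists Meis1, Meis2 and at most 6 genes a comparison by size of the log2 ratio. Some genes of these lists are not reported here. Coordinates are from GENCODE vM21 (GRCm38) and promoters from RefSeq (GRCm38.p6). The ratio was tested on simulated data. Alternatives were TMM (edgeR 4.0.16) and median-of-ratios scaling, other added CPM, other limits on level, cells and mitochondrial UMIs, other resolutions, removal of the highest Scrublet scores, and exchange of the P1 libraries. Calculations used Python 3.11.15, numpy 2.4.6, scipy 1.17.1, pandas 2.3.3 and R 4.3.3.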

Additional observations from a re-analysis of the deposited data

Results flagged for a closer look

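Among members at 20 CPM or more in both the lung and the fat comparison, 3 were at least 2-fold different between P1 and P2 in opposite directions in the libraries labelled lung and in those labelled fat. For Hoxa5 the log2 ratio of P1 over P2 was -2.25 in lung and 3.33 in fat, a difference of -5.58. For Hoxa3 it was -1.18 in lung and 1.42 in fat, a difference of -2.60, and for Hoxb4 -1.30 in lung and 1.29 in fat, a difference of -2.58. With 1 library a group these differences were not tested, and no share of all genes is given beside the 3. With the P1 libraries exchanged, the ratios in lung and fat were 0.14 and 0.95 for Hoxa5, -0.14 and 0.39 for Hoxa3, and -0.46 and 0.45 for Hoxb4. Other members had opposite signs without meeting these limits, among them Hoxd8, below 20 CPM in fat, with log2 ratios of 2.75 in lung and -1.34 in fat, and Hoxb5, with -0.71 in lung and 2.40 in fat.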

How the results depend on the processing

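No paired analysis was possible because each group has 1 library and no test was run, and no replicate could be left out. Over all alternatives, 121 counts and levels that answer a comparison moved by less than their limits and 33 moved by more, and of the values of named genes 263 stayed within them, 21 moved by more and 5 reversed. Adding 1 CPM in place of 10 gave 2 members lower in labelled lung P1 than in lung P2, 5 higher in lung P2 than in fat P2 and 5 higher in labelled lung P1 than in labelled fat P1; adding 50 CPM gave 0 in every count. With a minimum of 50 CPM, 1 member was higher in labelled lung P1 than in lung P2. At that minimum 1 was lower in labelled fat P1 than in fat P2, and 1 lower in lung P2 than in fat P2. Between the P1 libraries, 1 was higher in labelled lung P1 than in labelled fat P1. No share of all genes is given beside the counts at other added CPM or at the 50 CPM minimum. With the P1 libraries exchanged, 0 members were higher and 0 lower in the lung comparison, 0 higher in the fat comparison, and 1 higher and 3 lower between the P1 libraries; log2 ratios that reversed were 0.14 for Hoxa5 between the lung populations and 2.38, -2.23, -2.71 and -2.24 for Hoxa5, Hoxb7, Hoxd8 and Hoxd9 between the P1 libraries. At 10 CPM, 12 members in place of 7 counted as present in fat P2, and at 50 CPM 1, 4, 3 and 1 did in labelled lung P1, lung P2, labelled fat P1 and fat P2. At Leiden resolution 0.5, endothelial-like cells had Hoxa5 at 77.5 and Hoxd8 at 93.0 CPM in labelled lung P1, and Hoxa5 at 73.4 and Hoxb5 at 92.9 CPM in labelled fat P1; at resolution 2 the last pair was 185 and 68.0 CPM, against 233 and 53.9 CPM at resolution 1. These classes held other numbers of cells. Without thinning, 64.5% of labelled fat P1 and 78.4% of fat P2 cells had any Hox UMI. The median log2 ratio of all genes was -0.16, 0.34, 0.20 and -0.26 for the lung, fat, P2 and P1 comparisons, -0.09, 0.00, -0.13 and -0.18 with TMM and -0.03, -0.03, -0.12 and -0.08 with median-of-ratios scaling. The percent of called genes that were higher was 63.5 in lung P2 against fat P2, and 49.0 and 50.1 with these scalings; it was 53.9 in labelled fat P1 against fat P2, and 44.4 and 43.7; and it was 48.9 in labelled lung P1 against labelled fat P1, and 59.1 with median-of-ratios. Depth limits labelled lung P1 most, where a gene without a UMI could stand at up to 2.68 CPM.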
